A study of Homo sapiens with 6 samples.

Results

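The chaperones and foldases of the endoplasmic reticulum examined here are 10 genes, HSPA5, HSP90B1, DNAJB9, DNAJB11, DNAJC3, HYOU1, PDIA4, PDIA6, SDF2L1 and CALR, chosen by their symbols. These genes and the lists set beside them were chosen with earlier results of these data known. All 10 were found among the 14987 genes of the expression table, and all 10 passed the filter on low values. The study used the colorectal carcinoma line HCT116 and asked what YAP, a transcriptional coactivator held back by the Hippo kinases, contributes to gene expression under glucose deprivation. The 6 libraries are 1 each of shYAP1, shYAP3 and NC cells deprived of glucose for 6 h, and 1 each of the same lines in control medium. The labels give shYAP1 and shYAP3 cells as YAP knockdown and NC cells as wild type. They do not say how the constructs were delivered, whether a line is 1 clone, or whether libraries came from separate cultures. NC cells therefore have no replicate, and p-values measure only the spread between these libraries.

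The endoplasmic reticulum folds secreted and membrane proteins. BiP, the product of HSPA5, is an Hsp70 chaperone that binds unfolded chains in a cycle of ATP hydrolysis and nucleotide exchange, and J-proteins and exchange factors drive that cycle. GRP94, protein disulfide isomerases and the lectin chaperones calreticulin and calnexin handle other steps, the lectins by binding partly glucose-trimmed glycans. Lack of glucose disturbs glycan addition and has long been known to raise these chaperones, some of which were named glucose-regulated proteins. Their genes are classical targets of the unfolded protein response, in which ATF6 and XBP1 act at reticulum stress elements in promoters.

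The values are normalized read counts per gene as the authors deposited them. The libraries held 16912634 to 22161075 listed reads, and a single read was worth 0.0406 to 0.0693. YAP1, the target of the interference, stood at 20.3 in shYAP1, 18.2 in shYAP3 and 154 in NC cells after deprivation, against 35.7, 38.2 and 188 in the same lines in control medium. Of 12 markers of colorectal epithelium, 8 were listed and CDX1, CDH17, LGALS4 and CEACAM5 were not, and the summed values of the listed ones were 4325 to 5230 in deprived libraries and 2588 to 3717 in control libraries. Of the 7 tested, 3 were higher and 1 lower after deprivation by limma, against 16.5% and 15.6% of all genes tested. The sums were 3.05 to 6.33 in deprived and 8.23 to 10.5 in control libraries for 4 listed fibroblast markers, 22.6 to 38.6 and 18.6 to 20.6 for 7 listed leukocyte markers, and 3.81 to 8.13 and 3.74 to 5.11 for 4 listed endothelial markers. The defining markers COL1A2, PTPRC and PECAM1 were not listed, and the part of these sums in the results was not tested. By limma the 1 tested fibroblast marker was lower, 2 of 3 tested leukocyte markers were higher, and the 1 tested endothelial marker did not pass. The shYAP3 deprived library stood apart by transcript length, with a median deviation of 0.44 (log2) in the shortest 10% of genes and −0.29 in the longest 10%. SDF2L1 lies among those shortest genes and CALR in the class next to them, and with GC content and length trends removed all 10 members were still higher after deprivation, with a median log2 fold change of 1.35.

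The upstream sequences are shown because some of the members hold a stress element there. The members are classical targets of factors that act at such elements, so matches in them are no independent finding. In the 250 bases before the RefSeq transcription starts (GRCh38.p14), 4 of the 10 members held a reticulum stress element (ERSE), searched on both strands as CCAAT followed after 9 bases by CCACG. These were HSPA5, HSP90B1, PDIA6 and CALR, and HSP90B1 held 2. HYOU1 and SDF2L1 held the shorter ERSE-II, ATTGG followed after 1 base by CCACG, which occurred 2 times in HYOU1. The full upstream window of HSPA5 (chr9:125241344-125241593, minus strand, printed 5′ to 3′ toward the start) is given first, with the parts of the element in capitals.
HSPA5: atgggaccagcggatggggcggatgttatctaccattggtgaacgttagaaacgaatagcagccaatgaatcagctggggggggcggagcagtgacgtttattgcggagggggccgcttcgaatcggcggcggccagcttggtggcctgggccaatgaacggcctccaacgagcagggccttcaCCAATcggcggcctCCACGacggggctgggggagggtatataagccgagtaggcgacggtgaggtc

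The elements of the other 5 genes are shown with the bases around them, again with their parts in capitals. An element on the opposite strand appears as CGTGG followed by ATTGG (ERSE) or by CCAAT (ERSE-II). The windows are chr12:103930206-103930349 (plus strand) for HSP90B1, chr2:10812843-10812881 (minus strand) for PDIA6, chr19:12938374-12938412 (plus strand) for CALR, chr11:119057264-119057403 (minus strand) for HYOU1 and chr22:21642104-21642134 (plus strand) for SDF2L1.
HSP90B1: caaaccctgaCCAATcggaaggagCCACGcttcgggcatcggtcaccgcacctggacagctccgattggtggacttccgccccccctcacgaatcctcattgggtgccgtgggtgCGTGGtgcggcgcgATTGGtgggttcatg
PDIA6: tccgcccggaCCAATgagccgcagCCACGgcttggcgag
CALR: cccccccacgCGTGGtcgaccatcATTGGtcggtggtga
HYOU1: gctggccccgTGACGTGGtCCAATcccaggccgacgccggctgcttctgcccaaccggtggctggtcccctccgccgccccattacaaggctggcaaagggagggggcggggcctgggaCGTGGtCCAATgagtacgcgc
SDF2L1: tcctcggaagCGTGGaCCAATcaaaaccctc

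In HYOU1 the first ERSE-II overlaps the letters TGACGTGG, the core of the unfolded protein response element (UPRE), which no other member held. Of the 35116 promoters in the RefSeq table, 0.0740% held an ERSE, 0.0513% an ERSE-II and 0.612% the UPRE core in the same window. DNAJB9, DNAJB11, DNAJC3 and PDIA4 held none of these exact letters. PDIA4 and PDIA6 each have 2 RefSeq starts, and in PDIA6 the element lies before the downstream one. A match is a string of letters and not a measured binding site.

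**Figure D1:**
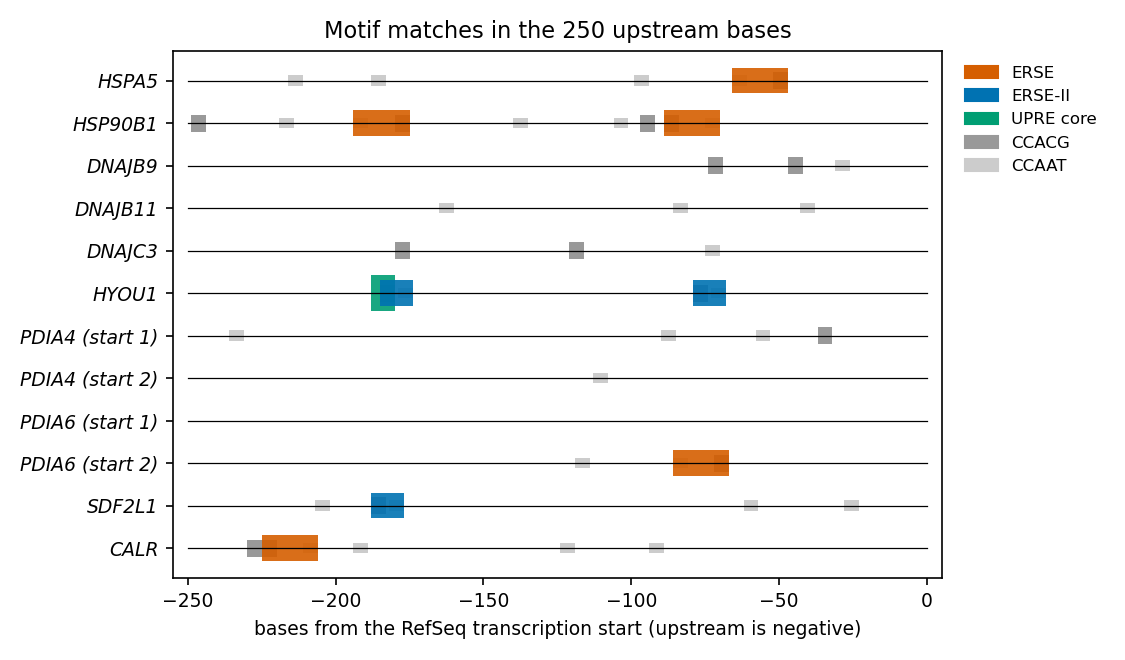
Positions of exact motif matches on either strand in the 250 bases before each RefSeq start of the 10 members, in bases from the start (horizontal), with 1 line per start. Orange and blue boxes mark ERSE and ERSE-II, which occur in 6 genes, the green box marks the UPRE core of HYOU1, and grey boxes mark the single parts CCACG and CCAAT.

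After 6 h without glucose all 10 genes were higher, and for each of them the 3 deprived libraries lay above the 3 control libraries. The increase passed at a limma adjusted p of 0.05 for 10 of 10 members, where 16.5% of the 12263 genes tested were higher by the same rule. Libraries of the media did not overlap in this direction for 26.8% of all genes. It was at least 2-fold for 9 of 10 members, against 2.67% of genes, and the members' median log2 fold change was 1.46, against 0.05 over all genes tested. As the members were chosen with earlier results of these data known, these shares describe the background and are no test of the set. All fold changes given are of log2(value + 1). In bulk RNA a different number of cells and a different amount of RNA per cell cannot be told apart.

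HSPA5 (ENSG00000044574, chromosome 9), which encodes BiP, stood at 4158 in shYAP1, 4234 in shYAP3 and 5464 in NC cells after deprivation, against 753, 659 and 788 in the same lines in control medium. The lowest deprived library was far above the highest control library. The mean was 4619 ± 733 in deprived and 733 ± 66.9 in control libraries (SD, n = 3 each), 6.26-fold (log2 2.65, SE 0.16, limma adjusted p = 2.4e-05). With quantile normalization the log2 fold change of HSPA5 was 2.01.

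J-proteins deliver clients to BiP and trigger its ATP hydrolysis, and the 3 among the 10 genes rose. DNAJB9 (ENSG00000128590, chromosome 7) encodes ERdj4, which is tied to degradation of misfolded proteins and holds back the sensor IRE1. It stood at 73.8 in shYAP1, 114 in shYAP3 and 78.3 in NC cells after deprivation, against 15.4, 11.4 and 12.0 in control medium. Its change of 2.67 ± 0.19 SE (log2, adjusted p in limma 8.5e-05) was the largest of the members and the 21st of all genes tested, with HSPA5 the 23rd. DNAJB9 is also the member with the fewest reads, 250 to 380 in control and 1271 to 1646 in deprived libraries.

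DNAJB11 (ENSG00000090520, chromosome 3) encodes ERdj3, a soluble J-protein that binds unfolded chains and hands them to BiP. Its values were 216 in shYAP1, 298 in shYAP3 and 231 in NC cells after deprivation, against 85.9, 70.7 and 77.3 in control medium (log2 1.65 ± 0.16 SE, adjusted p in limma 0.00046). DNAJC3 (ENSG00000102580, chromosome 13) encodes p58IPK, a J-protein also known as an inhibitor of the kinase PERK. It stood at 164, 198 and 206 in deprived shYAP1, shYAP3 and NC cells, against 60.0, 53.8 and 59.9 in control medium (log2 1.69 ± 0.14 SE, adjusted p in limma 0.00018). For both genes every deprived library held more than 2 times the value of the same line in control medium.

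HYOU1 (ENSG00000149428, chromosome 11) encodes GRP170, a large Hsp70 relative that exchanges the nucleotide of BiP. Its values were 460 in shYAP1, 477 in shYAP3 and 605 in NC cells after deprivation, against 193, 196 and 227 in control medium. NC cells were highest in each medium, and deprivation gave a change of 1.31 ± 0.13 SE (log2, adjusted p in limma 0.00046). SDF2L1 (ENSG00000128228, chromosome 22) encodes a partner of the ERdj3 and BiP complex. It stood at 102 in shYAP1, 123 in shYAP3 and 115 in NC cells after deprivation, against 38.4, 38.4 and 41.5 in control medium (log2 1.50 ± 0.13 SE, adjusted p in limma 0.00026).

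HSP90B1 (ENSG00000166598, chromosome 12) encodes GRP94, the Hsp90 of the reticulum, which folds integrins, Toll-like receptors and other selected clients. It stood at 2136 in shYAP1, 3739 in shYAP3 and 2439 in NC cells after deprivation, against 1131, 979.9 and 914 in control medium. The shYAP3 deprived library was well above the other deprived ones, and the error of the change was the widest of the 10 members. The mean was 2771 ± 852 in deprived and 1008 ± 111 in control libraries (SD, n = 3 each), and deprivation gave a change of 1.42 ± 0.22 SE (log2, adjusted p in limma 0.0028). With quantile normalization the log2 fold change of HSP90B1 was 0.76.

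Both disulfide isomerases among the 10 genes, of a family that makes and reshuffles disulfide bonds, rose. PDIA4 (ENSG00000155660, chromosome 7), or ERp72, stood at 589 in shYAP1, 729.8 in shYAP3 and 657 in NC cells after deprivation, against 287, 252 and 287 in control medium (log2 1.25 ± 0.15 SE, adjusted p in limma 0.0011). PDIA6 (ENSG00000143870, chromosome 2), an isomerase that binds BiP and dampens sensor signalling, stood at 405, 499 and 419 in deprived shYAP1, shYAP3 and NC cells, against 265, 236 and 251 in control medium. Its change of 0.81 ± 0.14 SE (log2, adjusted p in limma 0.0052) was the smallest of the members, and the only one under 2-fold.

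CALR (ENSG00000179218, chromosome 19) encodes calreticulin, the soluble lectin chaperone and calcium store protein of the lumen. It stood at 1417 in shYAP1, 1801 in shYAP3 and 1419 in NC cells after deprivation, against 713, 695 and 733 in control medium. The deprived libraries of shYAP1, shYAP3 and NC cells held 1.99, 2.59 and 1.94 times the value of the same line in control medium, and deprivation gave a change of 1.11 ± 0.16 SE (log2, adjusted p in limma 0.0022). With quantile normalization it was 0.50.

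**Figure D2:**
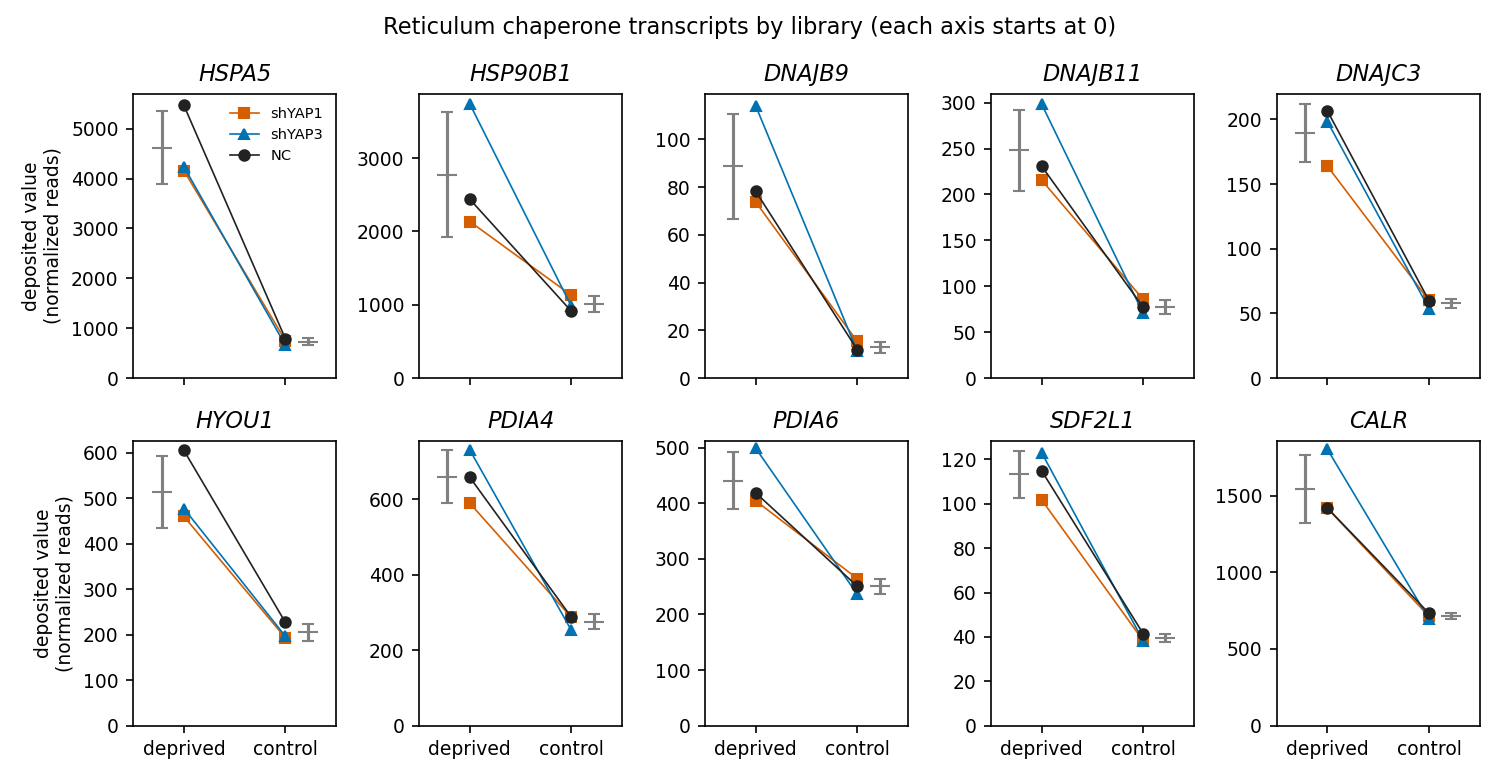
Deposited normalized values of the 10 members (vertical, linear axes from 0) in the deprived libraries (left in each panel) and the control libraries (right), with 1 symbol per line and grey bars for the mean ± SD (n = 3 libraries). For each gene the 3 deprived values lie above the 3 control values, with the largest log2 fold changes in DNAJB9 (2.67) and HSPA5 (2.65).

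The strand setting of the counting was not given in the sources used here. In the GENCODE v29 annotation (GRCh38), 7 members overlap another annotated gene and 4 overlap a coding gene on the opposite strand, and reads from such overlaps cannot be told apart. Some overlaps lie on the same strand, among them the coding gene AC068631.2 for DNAJB11 and processed pseudogenes for DNAJC3. A stranded count would not separate those. For DNAJB9 the coding genes on the opposite strand are PNPLA8, with a log2 fold change of 1.61 (adjusted p in limma 0.0012), and THAP5, with 0.43 (adjusted p = 0.12). PNPLA8, a phospholipase gene, held 56.3 in shYAP1, 90.9 in shYAP3 and 40.5 in NC cells after deprivation, against 22.7, 19.1 and 15.1 in control medium. The partners C12orf73 of HSP90B1, TBCCD1 of DNAJB11 and ATP6V1C2 of PDIA6 lay between 3.36 and 20.0 in all 6 libraries and had limma adjusted p of 0.41, 0.49 and 0.084.

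Levels were compared between genes after division by the length of the principal transcript. In deprived libraries HSPA5 was highest at 1182 ± 188 per kb, followed by HSP90B1 at 970 ± 298 and CALR at 812 ± 116 (SD, n = 3 libraries each). Neighbours in this order overlapped between libraries, so the order within those 3 genes is not beyond their spread. PDIA4 at 227, PDIA6 at 188, SDF2L1 at 131, HYOU1 at 113, DNAJB11 at 104, DNAJC3 at 33.9 and DNAJB9 at 32.7 per kb came next, with gaps beyond the spread after CALR, PDIA6 and DNAJB11. In control libraries CALR stood at 375 ± 9.99 and HSP90B1 at 353 ± 39.0 per kb, overlapping each other, and HSPA5 followed at 188 ± 17.1 per kb (SD, n = 3 libraries each). Below it came PDIA6 at 107, PDIA4 at 94.9, SDF2L1 at 45.6, HYOU1 at 45.3, DNAJB11 at 32.5, DNAJC3 at 10.4 and DNAJB9 at 4.76 per kb, and of these neighbours SDF2L1 and HYOU1 overlapped.

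Ratios between members within a library do not change when all values of that library are scaled by a common factor. Quantile normalization and removal of GC content and length trends are not such a scaling, and the ratios were not recomputed with them. HSPA5 per HYOU1, the chaperone over its exchange factor on the per kb scale, was 10.5 in shYAP1, 10.3 in shYAP3 and 10.5 in NC cells after deprivation, against 4.53, 3.89 and 4.03 in control medium. The ratio was higher in every deprived library than in any control library. HSPA5 over the summed J-proteins DNAJB9, DNAJB11 and DNAJC3 was 7.27, 5.37 and 8.63 in deprived shYAP1, shYAP3 and NC cells, against 3.69, 3.89 and 4.26 in control medium, without overlap. HSPA5 over HSP90B1 was 1.42, 0.828 and 1.64 in the deprived lines in the same order, against 0.487, 0.491 and 0.631 in control medium.

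The share of listed reads taken by the 10 members was 0.912% to 1.14% in deprived libraries, against 0.380% to 0.394% in control libraries. HSPA5 alone ranked 18th in shYAP1, 26th in shYAP3 and 9th in NC cells among all genes by reads after deprivation, against 134th, 150th and 117th in control medium. Within the summed per kb level of the members, HSPA5 made up 32.3%, 25.5% and 36.5% in deprived shYAP1, shYAP3 and NC cells, against 14.7%, 14.1% and 16.0% in control medium. CALR made up 22.6%, 22.3% and 19.5% in the deprived lines, against 28.5%, 30.5% and 30.6% in control medium, although its own level was higher after deprivation.

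**Figure D3:**
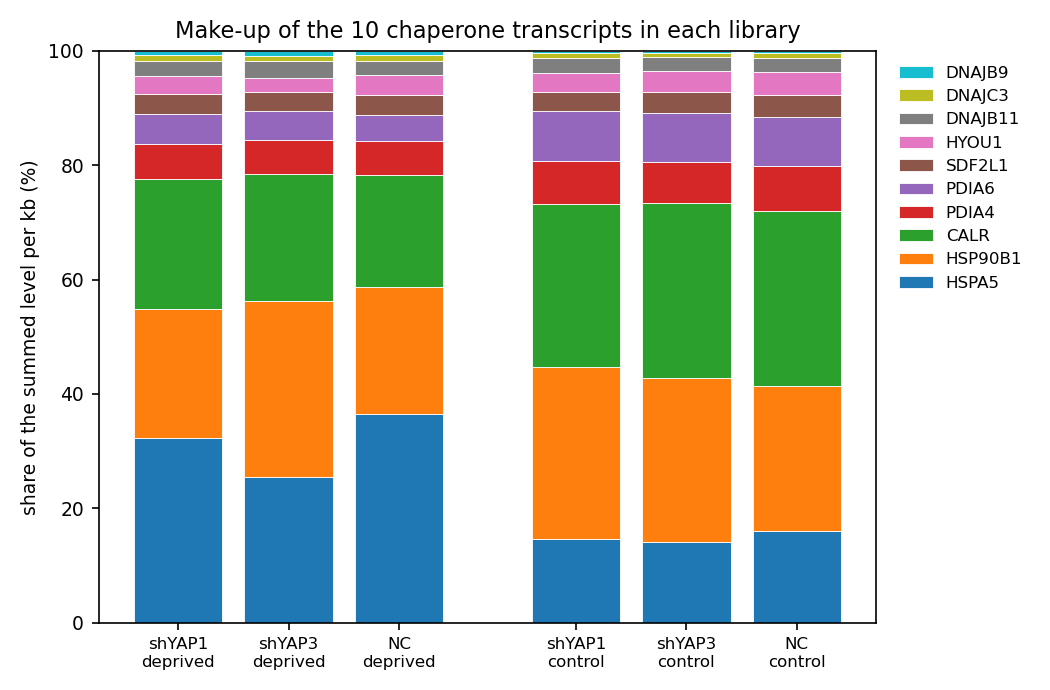
Share of each member in the summed per kb level of the 10 genes (vertical, percent), with 1 stacked bar per library and deprived libraries on the left. HSPA5 takes 25.5% to 36.5% in deprived and 14.1% to 16.0% in control libraries, and CALR 19.5% to 22.6% and 28.5% to 30.6%.

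The lines were then set side by side, with 1 library per medium in each and no test. The median log2 response of the members was 1.28 in shYAP1, 1.76 in shYAP3 and 1.43 in NC cells. At least 2-fold higher were 7 members in shYAP1, 10 in shYAP3 and 8 in NC cells, where 2.11%, 9.61% and 2.87% of all genes tested were. HSPA5 and HYOU1, the chaperone and its exchange factor, responded more in NC than in both shYAP lines, as 28.6% of all genes did. The other 8 members responded most in shYAP3 cells, as did 41.4% of all genes. All members but CALR responded least in shYAP1 cells, against 29.9% of all genes. These line responses are on the deposited scaling, where summed values rose most in shYAP3 cells. The sums were 1065953, 1172289 and 1018052 in deprived shYAP1, shYAP3 and NC cells, against 899067, 841186 and 885723 in control medium. The members' share of listed reads went from 0.383% to 1.14% in NC, 0.380% to 1.04% in shYAP3 and 0.394% to 0.912% in shYAP1 cells. By this share NC cells rose most, and by the median response shYAP3 cells did. The share is a sum in which HSPA5 weighs most, at 0.390%, 0.361% and 0.537% of listed reads in deprived shYAP1, shYAP3 and NC cells. Measure and scaling thus differ together here, and the part of scaling alone in the order of the lines was not tested.

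**Figure D4:**
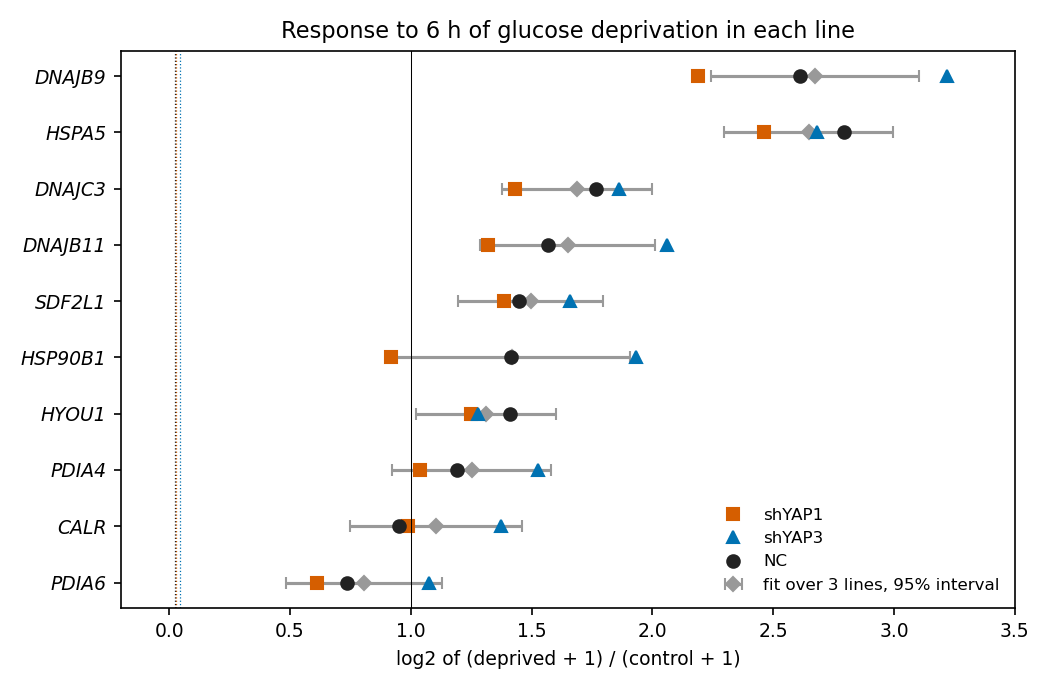
Response to deprivation of each member (horizontal, log2 of deprived over control with a pseudocount of 1) in shYAP1, shYAP3 and NC cells, with the fit over the 3 lines and its 95% interval in grey. The solid line marks 2-fold and the dotted lines near 0 mark the median of all genes in each line, and every member lies to the right of the dotted lines in every line.

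Whether YAP interference altered the members was tested over both media and as a difference of the responses. Over both media 0 of 10 members changed in shYAP against NC cells, where 1 gene of 12263 (0.00815%) did at a limma adjusted p of 0.05 and 7.32% had an unadjusted p under 0.05. The log2 fold changes ran from −0.29 in HYOU1 (95% interval −0.60 to 0.01, limma adjusted p = 0.58) to 0.21 in HSP90B1 (−0.31 to 0.72, adjusted p = 0.72). HSPA5 had −0.27 (95% interval −0.64 to 0.10, limma adjusted p = 0.59). With 2 shYAP lines against 1 NC line in each medium, differences within these intervals were not excluded. The intervals are not adjusted for the number of genes tested.

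The response of shYAP cells minus that of NC cells passed for 0 of 10 members and 0.0% of all genes with limma, and 0.905% of genes had an unadjusted p under 0.05. No gene passed with edgeR and 1 did with DESeq2 on the recovered reads. Without 1 shYAP library its group has 1 library left, and the spread comes only from the 2 shYAP libraries of the other medium. Counts of genes passing in such fits differed widely with the library left out, and no conclusion is drawn from them. The same limit holds for such fits within the shYAP cells below. The difference was −0.22 (log2) for HSPA5 with a 95% interval of −1.06 to 0.62, −0.15 for HYOU1 with −0.84 to 0.54, and 0.23 for CALR with −0.62 to 1.08. For HSP90B1 it was 0.01, with an interval of −1.20 to 1.21. The intervals reach a 2-fold difference in at least 1 direction for HSPA5, HSP90B1, DNAJB9, DNAJB11 and CALR. A difference of that size was therefore not excluded for these genes with these libraries. The sign was the same in every alternative only for HSPA5 and HYOU1, negative in each, and the other 8 members had both signs among the alternatives.

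Within the shYAP cells alone, 10 of 10 members were higher after deprivation (limma adjusted p), against 5.62% of all genes. The log2 fold change was 2.57 for HSPA5 (SE 0.21, limma adjusted p = 0.0028), 2.70 for DNAJB9 (SE 0.26, adjusted p = 0.0062) and 0.84 for PDIA6 (SE 0.19, adjusted p = 0.040). Without the shYAP1 control library, and likewise without the shYAP3 control library, HSPA5, DNAJB9, DNAJB11, DNAJC3 and SDF2L1 passed (5 of 10), and with no filter on low values 0 did. With quantile normalization 8 members passed, without PDIA6 and CALR, and with scaling to listed reads 9 did, without PDIA6. Between the constructs, shYAP3 minus shYAP1 over both media, 0 of 10 members passed, against 0.155% of genes with limma and 5.65% at an unadjusted p under 0.05. That difference ran from −0.08 (log2) in HSPA5 to 0.30 in HSP90B1, where the 95% interval was −0.31 to 0.91.

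The other folding genes of the reticulum did not move as a block. Of 67 further genes named for this compartment, 63 were listed and 61 tested, and with limma 23 were higher and 5 lower after deprivation (16.5% and 15.6% of all genes), with a median log2 fold change of 0.25, against 0.05 over all genes and 1.46 for the 10 members. These counts depend on scaling. With values scaled to equal listed reads the median of all genes moved to −0.24, and 9 of the 61 were higher and 10 lower, with a median of −0.05, while all 10 members were still higher with a median of 1.15. Between 7 and 26 were higher when a library was left out, the fewest without the shYAP3 control library.

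Among further cofactors of BiP and J-proteins, 7 of 11 were higher and 0 lower, with a median log2 fold change of 0.65. The count was 3 with scaling to listed reads (median 0.36), 4 without either NC library, 5 without the shYAP1 control library and 3 without the shYAP3 control library. HSPA13, a small Hsp70 relative of microsomes, stood at 155 in shYAP1, 315 in shYAP3 and 147 in NC cells after deprivation, against 64.3, 66.1 and 56.4 in control medium (log2 1.62, limma adjusted p = 0.0024). MANF, a secreted BiP cofactor and survival factor, had 1.24 (adjusted p in limma 0.0036). The J-proteins DNAJC18 and DNAJB14 of the reticulum membrane had 0.64 (adjusted p in limma 0.036) and 0.63 (adjusted p = 0.046), and neither passed with scaling to listed reads.

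Of 21 disulfide isomerases and oxidases, 10 were higher and 0 lower, with a median of 0.56. ERO1B, an oxidase that recharges the isomerases, was listed as ERO1LB and stood at 11.8, 14.0 and 15.5 in deprived shYAP1, shYAP3 and NC cells, against 4.99, 5.36 and 4.88 in control medium (log2 1.27, limma adjusted p = 0.0012). Its relative ERO1A had 0.22 and did not pass (adjusted p in limma 0.25). CRELD2, a stress-induced protein with isomerase activity, had 0.98 (adjusted p in limma 0.0029). P4HB, the founding disulfide isomerase, had 0.57 (adjusted p in limma 0.030) but −0.07 with quantile normalization, and TXNDC12 had 0.56 (adjusted p = 0.027) but did not pass with scaling to listed reads. With that scaling 3 of the 21 were higher and 3 lower, and 3 to 4 were higher in the fits without an NC or a shYAP control library.

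In the lectin cycle that CALR serves, 2 of 8 genes were higher and 1 lower, with a median of 0.17 (−0.14 with scaling to listed reads). CANX, the membrane-bound partner of calreticulin, had 0.61 (adjusted p in limma 0.016) and 0.00 with quantile normalization while CALR passed there. CLGN, a calnexin relative best known from testis, had 0.90 (adjusted p in limma 0.017) at values of 1.32 to 5.68. The calls of CANX and CLGN were lost without the shYAP1 control library and without the shYAP3 control library. MOGS, the glucosidase that takes the first glucose off new glycans, fell by 0.66 (log2, limma adjusted p = 0.011), a call that was lost in 4 of the 6 fits that left out a library.

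Among 8 prolyl isomerases of the reticulum 3 were higher and 1 lower, with a median of 0.12. With scaling to listed reads 1 was higher and 2 lower with a median of −0.15, with GC content and length trends removed the median was −0.19, and 0 were higher without the shYAP1 or without the shYAP3 control library. PPIB, or cyclophilin B, had 0.87 (adjusted p in limma 0.012), FKBP2 had 0.63 (adjusted p = 0.037) and FKBP10, which works on collagen, 0.45 (adjusted p = 0.026). FKBP11 fell to 4.12, 2.70 and 4.63 in deprived shYAP1, shYAP3 and NC cells, against 10.3, 9.41 and 11.2 in control medium (log2 −1.25, limma adjusted p = 0.0019). Of 13 chaperones with special clients 1 was higher and 3 lower, with a median of −0.07. SERPINH1, the collagen chaperone, had 0.92 (adjusted p in limma 0.0027). TAPBP, which helps load peptides onto MHC class I, had −0.83 (adjusted p in limma 0.010), and the torsins TOR1B and TOR3A had −0.52 (adjusted p = 0.023) and −0.47 (adjusted p = 0.046), and all 3 calls were lost in the 4 fits without an NC or a shYAP control library.

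Of 31 counterparts in the cytosol and mitochondria 9 were higher and 0 lower with limma, with a median of 0.35, and 4 were higher and 1 lower with quantile normalization or with scaling to listed reads. DNAJB1, the heat-inducible cytosolic J-protein, had a change of 2.63 ± 0.15 SE (log2, adjusted p in limma 2.1e-05), beside 2.65 for HSPA5. HSPA1B, a heat-inducible Hsp70 with a near-identical copy in HSPA1A that makes its reads uncertain, had 1.36 (adjusted p in limma 0.0043). DNAJA2 had 0.51 (adjusted p in limma 0.045) and ST13 0.46 (adjusted p = 0.030), and neither passed with quantile normalization. Of 16 regulators of the unfolded protein response 10 were higher and 0 lower, with a median of 0.94. HERPUD1, a degradation factor, had 3.30 (adjusted p in limma 7.8e-06) and DDIT3, the stress factor CHOP, 5.62 (adjusted p = 2.1e-05). ATF6, the membrane-bound factor that acts on stress elements, had 0.90 (adjusted p in limma 0.0044), XBP1 had 1.46 (adjusted p = 0.0012) and CREB3 had 0.60 (adjusted p = 0.014).

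**Figure D5:**
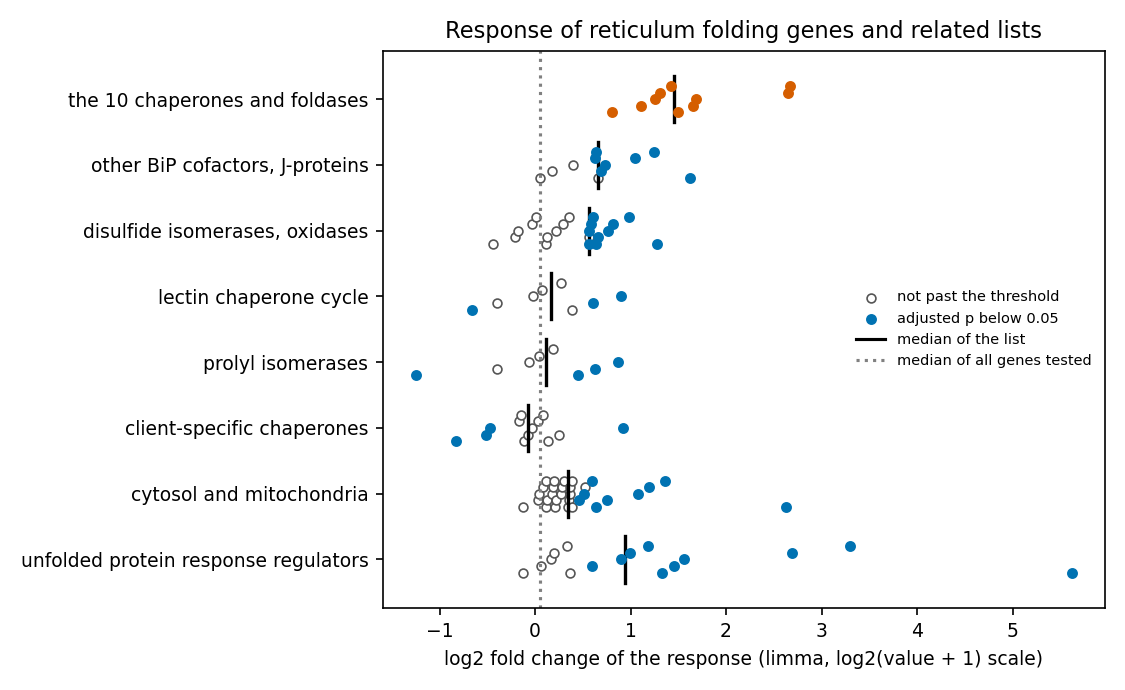
Log2 fold change of the response to deprivation (horizontal) for every tested gene of the members and of 7 further lists (rows), with filled points for genes past the limma threshold, bars at list medians and a dotted line at the median of all genes tested, 0.05. The members have the highest median, 1.46, followed by the regulators of the unfolded protein response at 0.94. Members and lists were chosen with earlier results known, so this order is a description.

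Read against the promoters printed above, the members that held an ERSE or ERSE-II had log2 fold changes of 0.81 to 2.65 (median 1.37, n = 6 genes). The 4 members without one had 1.25 to 2.67 (median 1.67). The largest response, DNAJB9, and the smallest, PDIA6, thus stand in the group without and in the group with an element. Of the genes tested, only those whose symbol matched a promoter of the RefSeq table could be searched (13702 promoters). Among them 29 held an ERSE or ERSE-II, of which 18 were higher and 0 lower with limma, where 16.5% of all 12263 genes tested were higher. Without the members there were 23, of which 12 were higher and 11 did not pass, with a median log2 fold change of 0.49. The 12 included XBP1, HERPUD1, CANX and CRELD2 named above, FICD, an enzyme that modifies BiP, with 1.43 (adjusted p in limma 0.0023), SERP1, a membrane protein tied to the translocon, with 0.65 (adjusted p = 0.0093), and ZNF143 with 1.23 (adjusted p = 0.0012). The window of CRELD2 overlaps that of its neighbour ALG12 (log2 0.03, limma adjusted p = 0.91), and that of SERP1 overlaps EIF2A (0.92, adjusted p = 0.0081). These pairs may share their element, but the positions of their matches were not compared. The windows of GYS1 (−0.17) and RUVBL2 (0.19), neither of which passed, also overlap, so that 3 pairs of the 29 genes have overlapping windows.

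The 6 tested genes outside all lists whose centred profile over the 6 libraries lay nearest to the mean profile of the members were TNFRSF12A, ULBP1, TUFT1, TMED7, MAP1LC3B and GRAMD3. Their root mean square distances ran from 0.0785 to 0.134 (log2), against 0.0745 for DNAJB11, the nearest member, and 0.554 for DNAJB9, the farthest. TNFRSF12A, the receptor of the cytokine TWEAK, stood at 185 in shYAP1, 230.5 in shYAP3 and 223 in NC cells after deprivation, against 64.1, 62.2 and 73.0 in control medium. TMED7, a cargo receptor between reticulum and Golgi, stood at 355, 439 and 399 in the deprived lines, against 162, 143 and 135 in control medium.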

How the data were processed

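RNA from 6 HCT116 libraries was profiled, with mRNA taken by oligo-dT beads and randomly fragmented, per the labels' protocols. Bowtie2, BWA and hg19 were named without role or version, per the submitters' processing notes. The sources used here do not state the counter, annotation or strand setting. The deposited signal is a normalized read count per gene whose scaling the authors did not describe in those sources. In each library 100% of values were whole multiples of 1 read (tolerance 0.01 read), so whole reads were recovered. A count of 0 allows 3 reads, worth 0.122 to 0.208, for counting error only. The NC control library has no gene at 0 and the others have 535 to 942, so genes absent from it are not listed.

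Under R 4.3.3, limma 3.58.1 was run with its mean-variance trend on log2(value + 1) for genes of at least 1 in at least 2 libraries (12263 genes), with Benjamini-Hochberg adjustment over all of them. Models were additive in genotype and medium, had 1 mean per genotype and medium, or took construct and medium in the 4 shYAP libraries. Other settings were edgeR 4.0.16 and DESeq2 1.42.0 on recovered reads, quantile normalization, scaling to listed reads, no filter, a pseudocount of 0.1, no trend, removal of GC content and length trends (longest transcript, 14686 genes), the construct as a replicate block, and leaving out each library. The block follows the design, as each construct is 1 line in both media, and deviations of same-line libraries correlated at r = 0.10 over 12263 genes. The fit was tested on simulated data.

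Levels per kb used the principal transcript of GENCODE v29 (GRCh38). Promoters came from the RefSeq table (GRCh38.p14), in which all 10 members matched. The named genes are the members, the 2 highest and 2 lowest log2 fold changes past the threshold in each list, and the 6 nearest profiles. Of the marker genes picked by this rule only KRT8 is named. XBP1, ERO1A and the genes with stress elements were named after their values were seen. Members and lists were chosen with earlier results of these data known.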

Additional observations from a re-analysis of the deposited data

How the results depend on the processing

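All 10 members were higher after deprivation in each of the 10 other settings and in each of the 6 fits without a library. The highest limma adjusted p was 0.046, for PDIA6 without the shYAP3 control library. The count of all genes moved far more. Genes higher and lower numbered 2018 and 1918, against 749 and 3820 with scaling to listed reads, and 328 and 302 with at least a 2-fold change. Leaving out a library gave 473 to 2871 higher and 584 to 2432 lower genes. P4HB (−0.066) and KRT8 (−0.0063), an epithelial keratin, turned with quantile normalization, which also put the median of the members in NC cells at 1.30 in place of 1.43. The cause was not tested.

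For knockdown over both media, DESeq2 called 7 genes and leaving out a library 0 to 5, none a member. No member passed there, and these signs turned: CALR −0.15 with quantile normalization, PDIA6 −0.0056 with scaling to listed reads, DNAJB11 −0.089 with trends removed. Without a library PDIA6 ran from −0.024 to 0.11, CALR from −0.058 to 0.17, DNAJB11 from −0.035 to 0.16 and PDIA4 from −0.12 to 0.010. For the response difference, leaving out a library gave 1 to 2739 genes and DESeq2 gave 1, again with no member called. Turned signs were HSP90B1 −0.32, DNAJB11 −0.0038, PDIA4 −0.11 and CALR −0.21 with quantile normalization, and HSP90B1 −0.15, DNAJB9 −0.067, DNAJB11 −0.036, PDIA4 −0.070, PDIA6 −0.055 and SDF2L1 −0.085 with scaling to listed reads. Removing trends, with or without the block, gave HSP90B1 −0.047 and SDF2L1 −0.43. Without a library HSP90B1 ran from −0.40 to 0.41, DNAJB9 from −0.22 to 0.40, DNAJB11 from −0.11 to 0.36, DNAJC3 from −0.26 to 0.017, PDIA4 from −0.064 to 0.25, PDIA6 from −0.045 to 0.26 and SDF2L1 from −0.062 to 0.21.

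Within shYAP cells 689 genes were higher, against 379 with scaling to listed reads, 0 with no filter (0 members), 1390 with trends removed, 1286 with DESeq2, 400 at 2-fold, and 126 to 4134 (5 to 10 members) without a library. Between constructs 19 genes differed, against 4 with scaling to listed reads, 0 with no filter or DESeq2, and 137 with trends removed, which turned DNAJB9 (−0.039) and DNAJB11 (−0.052). With the construct as a replicate block, 10 members were higher both over all lines and within shYAP cells, 1795 genes were higher within shYAP cells (2190 with trends also removed), and 4 genes (15 with trends removed) passed in the response difference, with no member among them. The block changed no call of a member. The construct difference without a shYAP library and the response difference without an NC library could not be fitted. The lowest read count of a member was 250, and 1 library per line and medium limits every comparison of lines.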
